A study of Mus musculus with 12 samples.

Results

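Keratin and cornified envelope genes, 54 genes of the barrier-forming epithelium of skin, were followed through 4 fractions of sorted skin monocytes and macrophages. They were chosen by symbol: keratins (Krt with a number), late cornified envelope genes (Lce), small proline-rich genes (Sprr) and the named genes Lor, Flg, Flg2, Ivl, Dsp, Dsc3, Dsg1a, Pkp1, Evpl, Ppl, Trp63, Sfn and Perp, each with a summed raw count of at least 50 over 12 libraries. Of 99 symbols in the table that fit these names, 54 reached that sum, out of 37775 genes in all. Krt13 (54 counts) and Krt4 (58 counts) lay just inside the limit, and Krt75 (49 counts) and Krt8 (47 counts) just outside it. Of the 54 members, 50 passed the filter on low counts that was applied to the whole table, and Krt4, Krt13, Krt18 and Krt35 did not. There are 9 members that reach the sum only through the fraction in which they are highest, with fewer than 50 counts in the other fractions together: Sprr2e, Sprr2b, Lce1f, Krt42 and Krt13 through early CMDMs, Sprr4, Krt4 and Krt18 through late CMDMs, and Krt83 through classical monocytes. For these the choice of members already favours a difference, so their values are a description. For each comparison the count of calls over all members is also given for the 44 tested members that remain. Counts by class keep these 9 unless stated.

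The cells came from the IgE-CAI skin lesion, a mouse model of IgE-mediated chronic allergic inflammation in which WT BALB/c mice received 300 µg of anti-TNP IgE and, a day later, 10 µg of TNP-conjugated OVA into the ear skin. On day 5 the ears were dissociated, and CD45+CD11b+SiglecF-Ly6G- cells of the monocyte-macrophage lineage (Mo-Macs) were sorted by Ly6C and PD-L2 into Ly6ChiPD-L2lo classical monocytes, Ly6ChiPD-L2hi early CMDMs (classical monocyte-derived macrophages), Ly6CloPD-L2hi late CMDMs and Ly6CloPD-L2lo resident-like macrophages. Each fraction had 3 libraries of poly(A) RNA from 5000 to 80000 sorted cells, all fractions shared genotype, strain, treatment and day, and the labels give no age. The labels do not say whether the libraries of a fraction came from separate mice, so p-values here measure the spread between these libraries, which may in part be technical. The sort used no epithelial marker, and Mo-Macs are not cells in which these genes are known to form a keratin network.

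Keratins are the intermediate filament proteins of epithelia, and each filament pairs an acidic type I with a basic type II keratin. Dividing cells of the basal epidermal layer make Krt5 with Krt14 under the transcription factor Trp63, and cells that leave this layer switch to Krt1 with Krt10 and, higher up, Krt2. In the outermost layers involucrin (Ivl), periplakin (Ppl), envoplakin (Evpl), loricrin (Lor) and the Sprr and Lce proteins are cross-linked into the cornified envelope, filaggrin (Flg) bundles the keratin filaments, and desmosomes (Dsp, Dsc3, Dsg1a, Pkp1, Perp) hold the cells together. Hair follicles add their own keratins, such as Krt17 in the outer root sheath, Krt79 in the upper follicle and sebaceous duct, and Krt32 and Krt83 in the shaft.

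On this basis the members were placed in 4 basal, 9 suprabasal, 19 cornified, 6 desmosome and other, 11 hair follicle and 5 simple epithelial and other genes. On the GRCm38 build 15 members lie in the type I keratin cluster on chromosome 11 (99232761 to 100269871), 13 in the type II keratin cluster on chromosome 15 (101347444 to 102032027) and 17 in the epidermal differentiation complex on chromosome 3 (92080271 to 93293686) of the GENCODE annotation, which lists 53 of the 54 as protein-coding and Sprr2g as a polymorphic pseudogene. RefSeq starts on GRCm38.p6 were found for 34 of the 54 members. In the 250 bases before the start, the letters TATAAA stood on either strand in 44.1% of these 34 members and in 13% of all 27025 genes with an entry. The letters TGANTCA, a loose form of the core of AP-1 sites in which N is any base, stood in 35.3% of the members and in 6.87% of all genes. CCAAT stood in 38.2% and 34.5%. Of 11 Sprr members with an entry, 7 held TGANTCA, and some of these genes are close copies of each other. The 150 bases before the RefSeq start are shown for Krt10, the member with the highest level, for Krt79, a hair follicle member with another course over the fractions, and for 4 cornified members of the epidermal differentiation complex, with these motifs in capitals, also where the match is on the other strand.
Krt10, chr11:99389365-99389514, minus strand: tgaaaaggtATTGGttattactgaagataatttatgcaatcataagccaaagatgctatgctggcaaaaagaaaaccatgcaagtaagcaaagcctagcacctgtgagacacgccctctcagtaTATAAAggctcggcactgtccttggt
Krt79, chr15:101940325-101940474, minus strand: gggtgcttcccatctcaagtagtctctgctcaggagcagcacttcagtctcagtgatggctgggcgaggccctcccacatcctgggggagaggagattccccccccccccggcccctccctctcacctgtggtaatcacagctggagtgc
Ivl, chr3:92573736-92573885, minus strand: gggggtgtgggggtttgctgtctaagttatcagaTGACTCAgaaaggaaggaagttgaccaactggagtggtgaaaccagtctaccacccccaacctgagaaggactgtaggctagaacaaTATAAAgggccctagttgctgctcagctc
Lor, chr3:92083143-92083292, minus strand: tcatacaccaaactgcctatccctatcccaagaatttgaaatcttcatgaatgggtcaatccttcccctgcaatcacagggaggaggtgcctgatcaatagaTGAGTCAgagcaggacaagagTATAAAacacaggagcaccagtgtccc
Sprr1a, chr3:92485882-92486031, minus strand: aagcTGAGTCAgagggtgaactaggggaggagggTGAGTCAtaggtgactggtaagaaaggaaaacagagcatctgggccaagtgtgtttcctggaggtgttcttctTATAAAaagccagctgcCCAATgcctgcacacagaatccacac
Sprr1b, chr3:92438780-92438929, minus strand: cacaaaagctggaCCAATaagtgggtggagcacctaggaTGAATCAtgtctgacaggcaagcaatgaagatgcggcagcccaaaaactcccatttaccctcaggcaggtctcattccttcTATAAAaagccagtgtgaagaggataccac
TATAAA began 26, 29, 27, 43 and 30 bases before the start in Krt10, Ivl, Lor, Sprr1a and Sprr1b, and the window of Krt79 held none of the 3 motifs. TGANTCA was present in the 4 cornified windows shown (as TGAATCA in Sprr1b) and in neither keratin window. The windows shown are a choice. Among cornified members not shown, Flg and Flg2 also held TGANTCA in these 150 bases, and Sprr2b, Sprr2d, Sprr2e, Sprr2f and Sprr2h did not. Such matches describe letters and not bound sites.

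The libraries held 12537178 to 19844113 counts each. Levels are given as CPM (library-size scaled counts) after TMM normalization, with SD over n = 3 libraries, and fold changes on the log2 scale with their SE and the Benjamini-Hochberg adjusted p of edgeR's quasi-likelihood test over 22118 genes, called at 0.05. All 7 Mo-Mac markers examined (Ptprc, Itgam, Csf1r, Lyz2, Cd68, Adgre1, Fcgr1) were above 0 in the 12 libraries, and their summed level was 6800 to 8900 CPM in classical monocytes, 5750 to 6710 CPM in late CMDMs, 2300 to 3270 CPM in early CMDMs and 8990 to 10000 CPM in resident-like macrophages. The members together held 0.328% to 0.727% of the counts in classical monocytes, 3.05% to 4.75% in early CMDMs, 0.555% to 0.691% in late CMDMs and 0.382% to 0.426% in resident-like macrophages. Early CMDMs thus had the lowest summed Mo-Mac markers and the highest summed members, and the part of the former in the latter was not tested. Most of the marker sum was Lyz2, which averaged 5802 ± 1150 CPM for classical monocytes against 1761 ± 217 CPM for early CMDMs. Lyz2, Ptprc, Itgam and Fcgr1 were called lower in early CMDMs, whereas Csf1r, Adgre1 and Cd68 differed by -0.01, 0.03 and -0.29 on the log2 scale and were not called (edgeR adjusted p = 0.963, 0.864 and 0.195). Fewer cells of a type and less RNA per cell cannot be told apart in such bulk libraries.

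**Figure D1:**
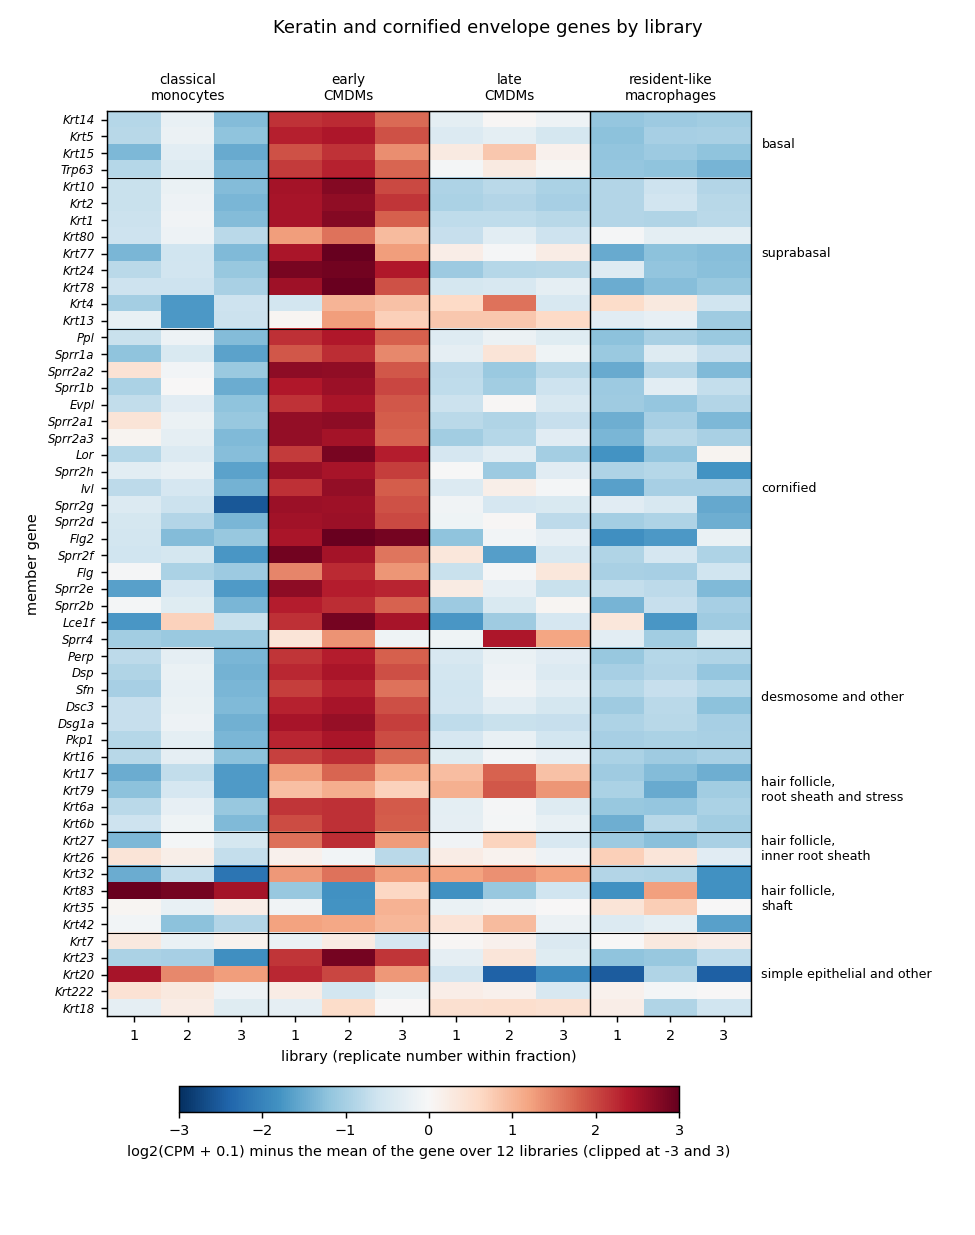
Heat map of the 54 members (rows, by class and then by summed count) in the 12 libraries (columns, by fraction); colour is log2(CPM + 0.1) minus the mean of the gene over the 12 libraries, clipped at -3 and 3. The 3 early CMDM libraries are the reddest columns for most basal, suprabasal, cornified and desmosome members, while Krt17, Krt79 and Krt32 are red in both early and late CMDMs, Krt20 in classical monocytes and early CMDMs, and Krt83 in classical monocytes.

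The members were highest in early CMDMs. Of the 50 tested, 45 passed the test with a higher and 1 (Krt83) with a lower level in early CMDMs than in classical monocytes, against 24.2% called higher and 20.6% called lower of all genes tested. Of the 44 whose place does not rest on a single fraction, 40 were higher, and Krt83 was not among them. The median log2 fold change of the 50 was 2.90, and that of all genes was -0.01. In 41 of the 54 members (75.9%) each early CMDM library lay above the other 9 libraries, against 14.6% of the genes tested, and this held in 37 of the 45 members (82.2%) left without the 9.

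The 4 basal genes were all called higher. Krt14, the basal type I keratin, had 4014, 4222 and 2916 CPM in the early CMDM libraries against 497, 774 and 364 CPM in classical monocytes. Late CMDMs had 732, 915 and 802 CPM and resident-like macrophages 401, 422 and 439 CPM. The early CMDM libraries did not overlap with any other, and the difference from classical monocytes was 2.77 ± 0.23 (SE; edgeR adjusted p = 1.52e-07). Its partner Krt5 had 3542 ± 662 CPM (SD, n = 3) in early CMDMs and 468 ± 172 CPM in classical monocytes. Krt15, a basal and follicle bulge keratin, reached 764 ± 198 against 109 ± 52.7 CPM, and Trp63 165 ± 31.7 against 22.5 ± 7.69 CPM. The 4 log2 fold changes spanned 2.77 to 2.92.

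All 7 tested suprabasal genes were called higher as well, with a median of 3.09. Krt10 had 11660, 13850 and 8189 CPM in early CMDMs against 1309, 1810 and 833 CPM in classical monocytes. It had 1093, 1185 and 1076 CPM in late CMDMs and 1117, 1335 and 1116 CPM in resident-like macrophages. Outside early CMDMs its libraries overlapped, and early CMDMs exceeded classical monocytes by 3.09 ± 0.25 on the log2 scale (SE; edgeR adjusted p = 1.37e-07). Krt2, the keratin of the upper layers, had 6883 ± 1211 CPM against 813 ± 328 CPM, and Krt1 had 1301 ± 406 CPM against 164 ± 65.5 CPM. Krt80, a more widely expressed type II keratin, had 160 ± 38.8 CPM against 45.7 ± 11.1 CPM, and its log2 fold change of 1.81 ± 0.19 was the smallest of the class. Per kilobase of the longest GENCODE coding transcript the mean level in early CMDMs was 5363 CPM for Krt10, 2634 for Krt2, 2189 for Krt14, 1612 for Krt5, 1282 for Perp and 1089 for Sfn.

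Among cornified genes, the 15 whose place does not rest on a single fraction were all called higher, with log2 fold changes of 2.53 to 3.96, while 20 cornified symbols of the table lay below the limit of 50 counts and were not followed. Ppl, a plakin of the envelope and desmosomes, had 271, 315 and 208 CPM in early CMDMs and 37.4, 53.7 and 24.1 CPM in classical monocytes. Sprr1a had 234 ± 62.8 CPM against 31.5 ± 13.3 CPM. Flg2, a filaggrin-like protein of the granular layer chosen after its values were seen, had 115, 163 and 153 raw counts in early CMDMs against 13, 8 and 9 counts in classical monocytes (log2 fold change 3.96 ± 0.36, edgeR adjusted p = 2.65e-07). Lor, chosen after its values were seen for its place as the main envelope protein, had 33.7, 57.1 and 40.5 CPM in early CMDMs and 2.21 to 8.34 CPM in the other 9 libraries. Sprr2e, with 70, 54 and 52 counts in early CMDMs and 2, 7 and 2 in classical monocytes, and Lce1f, a late cornified envelope gene with 23, 37 and 28 counts in early CMDMs and 0 to 8 elsewhere, reached the limit only through early CMDMs, so these values are a description. The 3 Sprr2a genes share most of their sequence, 96.5% of the 50-base words of Sprr2a2 being found in another gene, so their split is uncertain while the sum of the class is not affected.

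The 6 desmosome and other genes rose by 2.82 to 3.07 on the log2 scale. Perp, a tetraspan protein of desmosomes, had 2551, 2955 and 2004 CPM against 337, 481 and 223 CPM. Desmoplakin (Dsp), which ties keratin filaments to desmosomes, had 2191, 2507 and 1754 CPM against 244, 400 and 172 CPM, and Sfn (14-3-3 sigma of stratified epithelia) and Dsc3 (desmocollin 3) differed by 2.82 ± 0.26 and 2.93 ± 0.24 (SE). For the basal, suprabasal, cornified and desmosome genes whose values are given above for this comparison, the early CMDM libraries lay above all other libraries. This was so for 14.6% of all genes tested, and for Sprr2e and Lce1f it is a description.

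Hair follicle genes were less uniform. Of 10 tested, 8 were called higher, 1 lower and 1 was not called, and without Krt42 and Krt83 7 of 8 were called higher. Krt16 and Krt6a, root sheath keratins that are also induced in wounded epidermis, rose by 2.73 ± 0.20 and 2.75 ± 0.18 (SE). Krt17 rose by 2.66 ± 0.29 and Krt79 by 1.96 ± 0.29. Krt32 went from 4, 9 and 2 counts in classical monocytes to 37, 46 and 35 counts in early CMDMs. Krt83, a shaft keratin, had 43, 45 and 34 counts in classical monocytes and 1, 0 and 7 in early CMDMs, but it reached the limit only through classical monocytes and DESeq2 did not call it (adjusted p = 0.0816). Of its 50-base words 23.2% are shared with other genes, most with Krt86.

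Of the 4 simple epithelial and other genes tested only Krt23 was called, with 139, 225 and 135 counts in early CMDMs against 15, 16 and 8 in classical monocytes. Krt7, a keratin of simple and glandular epithelia, had 3.89, 5.24 and 3.10 CPM in early CMDMs and 5.41, 3.84 and 4.79 CPM in classical monocytes, and its libraries overlapped over all 4 fractions (3.10 to 5.45 CPM). Krt20, a keratin of gut epithelium and Merkel cells, had 4.08, 3.35 and 2.02 CPM in early CMDMs, 4.73, 2.25 and 1.95 CPM in classical monocytes and at most 0.477 CPM in the other 6 libraries, so it split by Ly6C and not by PD-L2. Krt222 had at most 1.23 CPM in any library, and its difference of -0.38 ± 0.33 was not called.

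**Figure D2:**
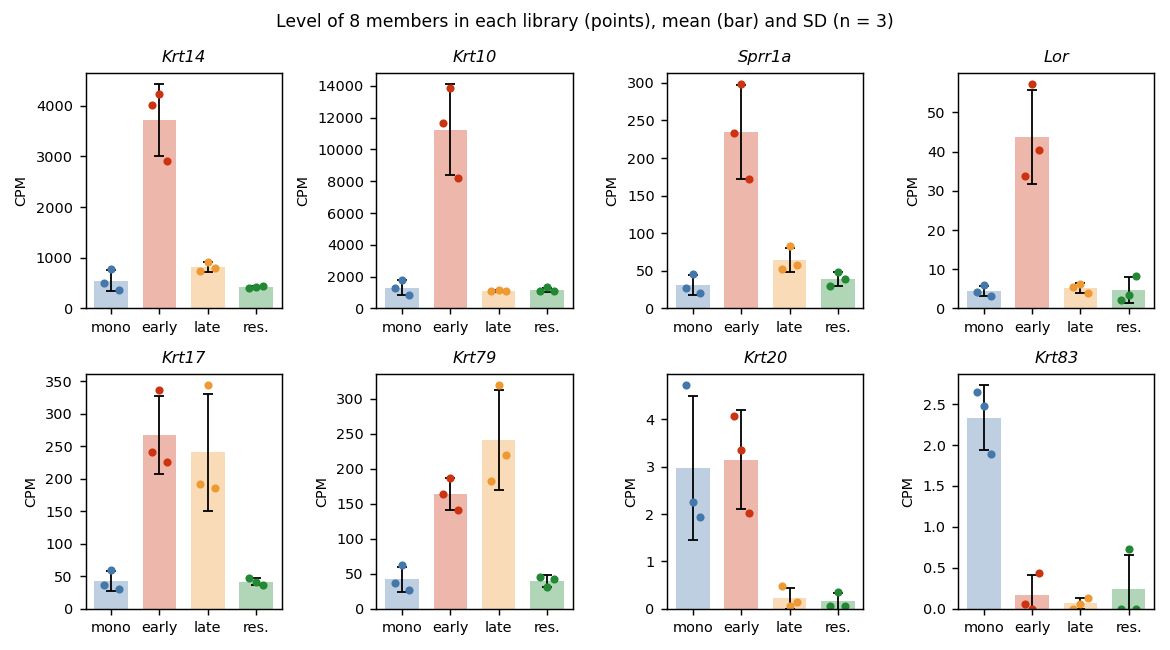
CPM of 8 members in the 4 fractions, with each library as a point, the mean as a bar from 0 and the SD (n = 3) as a whisker. Krt14, Krt10, Sprr1a and Lor stand out in early CMDMs, Krt17 and Krt79 are high in both early and late CMDMs, Krt20 is high in both Ly6Chi fractions and Krt83 in classical monocytes.

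Late CMDMs had lower levels than early CMDMs in most members. Of 50 members 41 were called lower and 0 higher, against 17.5% lower and 14.4% higher of all genes, and the median log2 fold change was -2.52. Of the 44 members whose place does not rest on a single fraction, 38 were lower. With edgeR 0 members were also higher at an unadjusted p under 0.05, and DESeq2 called 0 higher. The 7 suprabasal genes were all lower with a median of -3.18, the 4 basal genes with a median of -2.08, 18 of 19 cornified genes were lower (median -2.85; 15 of 15 whose place does not rest on a single fraction) and all 6 desmosome and other genes (median -2.63). The classes overlapped, suprabasal genes spanning -3.68 to -1.83 and basal genes -2.65 to -1.42, and the difference between classes was not tested. Krt10 fell by 3.33 on the log2 scale and Krt14 by 2.19, while Krt15 (-1.42 ± 0.30) and Trp63 (-1.97 ± 0.20) fell less.

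Only 4 of 10 hair follicle genes were called lower in late than in early CMDMs. Krt17 had 193, 345 and 186 CPM in late CMDMs and 242, 337 and 225 CPM in early CMDMs, and these libraries overlapped (log2 difference -0.15 ± 0.27, edgeR adjusted p = 0.725). Krt79 had 182, 320 and 220 CPM in late CMDMs and 163, 187 and 141 CPM in early CMDMs, a difference of 0.56 ± 0.28 that was not called (adjusted p = 0.155). Krt32 had 27, 40 and 32 counts in late CMDMs, close to its counts in early CMDMs, and -0.13 ± 0.28 as difference.

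Against classical monocytes, late CMDMs had 10 of 50 members called higher and 2 lower, against 18.1% higher and 17.5% lower of all genes. Higher calls were thus about as frequent as among all genes and lower calls less frequent, and the median log2 fold change was 0.39. Without the 9 members named at the start 9 were called higher and 1 lower of 44. The 10 were the basal genes Krt14, Krt15 and Trp63, the hair follicle genes Krt17, Krt79 and Krt32, the cornified genes Sprr1a, Ivl and Sprr4, and Krt23. Krt17 was 2.51 ± 0.29 higher (edgeR adjusted p = 2.41e-05) and Krt79 2.52 ± 0.30 higher (adjusted p = 2.86e-05). Krt15 was 1.39 ± 0.30 higher, with 255, 370 and 229 CPM in late CMDMs and 82.8, 169 and 73.8 CPM in classical monocytes, and Trp63 was 0.91 ± 0.20 higher. For Krt14 the difference was 0.58 ± 0.21 (adjusted p = 0.0454), and it was not called in 8 of the 12 fits that each left out 1 library. Sprr1a (1.04 ± 0.31) was not called without replicate 1 or 3 of classical monocytes or replicate 2 of late CMDMs (adjusted p = 0.0707, 0.0833 and 0.0669), nor Krt23 (1.27 ± 0.36) without replicate 2 of late CMDMs (0.079). The calls of Krt17, Krt79, Krt15, Trp63 and Krt32 held in all 12 such fits. Sprr4 had 4, 39 and 14 counts in late CMDMs against 2 in each classical monocyte library and 8, 17 and 5 in early CMDMs, and it reached the limit of 50 counts only through late CMDMs.

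None of the 7 tested suprabasal genes was called in either direction between late CMDMs and classical monocytes by edgeR, where 1 was higher at an unadjusted p under 0.05 and 0 lower. DESeq2 was run without that filter on all 9 suprabasal members, Krt4 and Krt13 included, and called 2 of the 9 higher. Krt10 differed by -0.24 ± 0.23 (edgeR adjusted p = 0.462). The 6 desmosome genes were not called either, 0 passing an unadjusted p under 0.05 and 0 called by DESeq2. The 2 members called lower were Krt20 (-3.79 ± 0.61) and Krt83, whose late CMDM libraries held 0, 1 and 2 counts and whose place rests on classical monocytes.

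This comparison moved with the scaling. When the libraries were scaled by 10 leukocyte genes instead of TMM, which shifted the median of all genes by 0.88, 39 members were called higher and 2 lower, and Krt10 turned to 0.67, below that shift. The same scaling shifted the median of all genes by 1.66 for early CMDMs against classical monocytes and by -0.76 for late against early CMDMs, and there 49 members were called higher with 1 lower and 44 lower with 0 higher. The share of all genes called under this scaling was not computed, so these counts cannot be set against it. With TMM all 10 scaling genes were called lower in early CMDMs than in classical monocytes, 7 were lower in late CMDMs than in classical monocytes, and 8 were higher in late than in early CMDMs. The libraries of classical monocytes were also the most spread. For 24 members of at least 10 CPM the highest library was 2.21 times the lowest (median over members) in classical monocytes, against 1.49 times for 35 members in early CMDMs, 1.25 times for 24 in late CMDMs and 1.19 times for 23 in resident-like macrophages. Without replicate 2 of classical monocytes, the library with the highest value in 34 of 54 members, 22 members were higher and 2 lower in late CMDMs. Without replicate 3 of classical monocytes, the library with the lowest value in 44 of 54 members, 7 were higher and 5 lower, and without replicate 2 of late CMDMs 6 were higher and 2 lower.

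**Figure D3:**
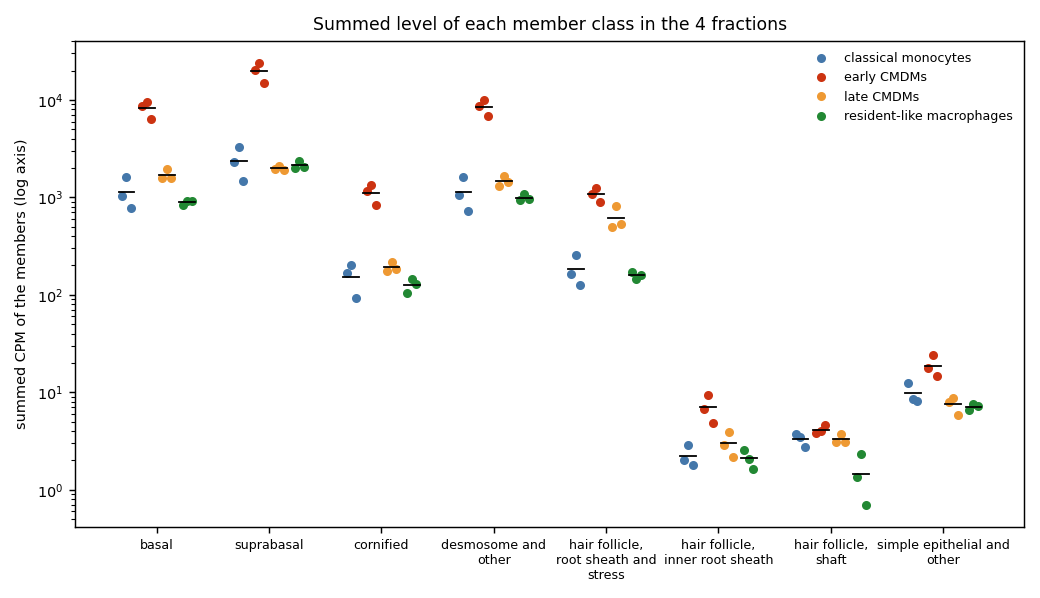
Summed CPM of each member class (log axis) in each library (points) with the mean as a line, coloured by fraction. Early CMDMs lie above the other fractions for basal (6395 to 9415 CPM), suprabasal, cornified and desmosome genes, late CMDMs come near early CMDMs for the root sheath and stress keratins (501 to 817 CPM against 906 to 1261 CPM), and the last 3 classes are low throughout.

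Resident-like macrophages had the lowest mean level in 33 of the 54 members. Against early CMDMs 45 members were called lower and 0 higher (all genes 25.1% lower and 21.4% higher), with a median of -3.23, and 41 of 44 were lower without the 9 members named at the start. Against late CMDMs 20 were called lower and 0 higher (15.5% and 12.7% of all genes), among them 4 of 4 basal genes, 7 of 10 hair follicle genes, 5 of 19 cornified, 2 of 7 suprabasal and 1 of 6 desmosome genes, and 19 of 44 without the 9. Krt17 had 47.7, 40.6 and 36.5 CPM in resident-like macrophages, below every late CMDM library (log2 difference -2.54 ± 0.29), and Krt79 had 45.6, 30.5 and 42.6 CPM (-2.61 ± 0.30). Trp63 differed by -1.35 ± 0.21 and Krt10 by 0.09 ± 0.23, the latter not called (edgeR adjusted p = 0.813). Against classical monocytes 4 members were called lower and 0 higher (12.9% and 10.8% of all genes), namely Krt20, Sprr2a1, Sprr2a2 and Krt83. The median was -0.24, the place of Krt83 rests on classical monocytes, and 3 of 44 were lower without the 9 members named at the start. DESeq2 did not call Krt83 there (adjusted p = 0.213), and Sprr2a2 (-1.09 ± 0.35) was not called in 6 of 12 fits that left out 1 library. In each of these 3 comparisons edgeR had 0 members higher at an unadjusted p under 0.05 and DESeq2 called 0 higher. The count against classical monocytes was 15 without replicate 3 of that fraction, the library with the lowest value of its fraction in 44 of 54 members, and the count against late CMDMs was 10 without replicate 2 of late CMDMs or without replicate 1 of resident-like macrophages.

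The sort crossed Ly6C with PD-L2, so the PD-L2hi minus PD-L2lo difference can be set side by side for Ly6Chi cells (early CMDMs minus classical monocytes) and Ly6Clo cells (late CMDMs minus resident-like macrophages), which share no library. It was larger in Ly6Chi cells in 35 members and in 0 smaller (all genes 11.8% and 10.3%), with a median gap of 2.18, and 0 were smaller at an unadjusted p under 0.05 or by DESeq2. Without the 9 members named at the start it was larger in 34 of 44. All 7 suprabasal and all 6 desmosome genes, 3 of 4 basal and 15 of 19 cornified genes were among the 35, but only 3 of 10 hair follicle genes (Krt16, Krt6a and Krt6b). Krt10 had 3.09 in Ly6Chi and -0.09 in Ly6Clo cells, a gap of 3.18 ± 0.33 (edgeR adjusted p = 1.21e-05). Krt14 had 2.77 and 0.96. For Krt17 the differences were 2.66 and 2.54, with a gap of 0.13 ± 0.39, and for Krt79 1.96 and 2.61, with a gap of -0.64 ± 0.40, neither of them called. Krt15 lay between, with 2.81 and 1.60 and a gap of 1.22 ± 0.42 (adjusted p = 0.0563).

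**Figure D4:**
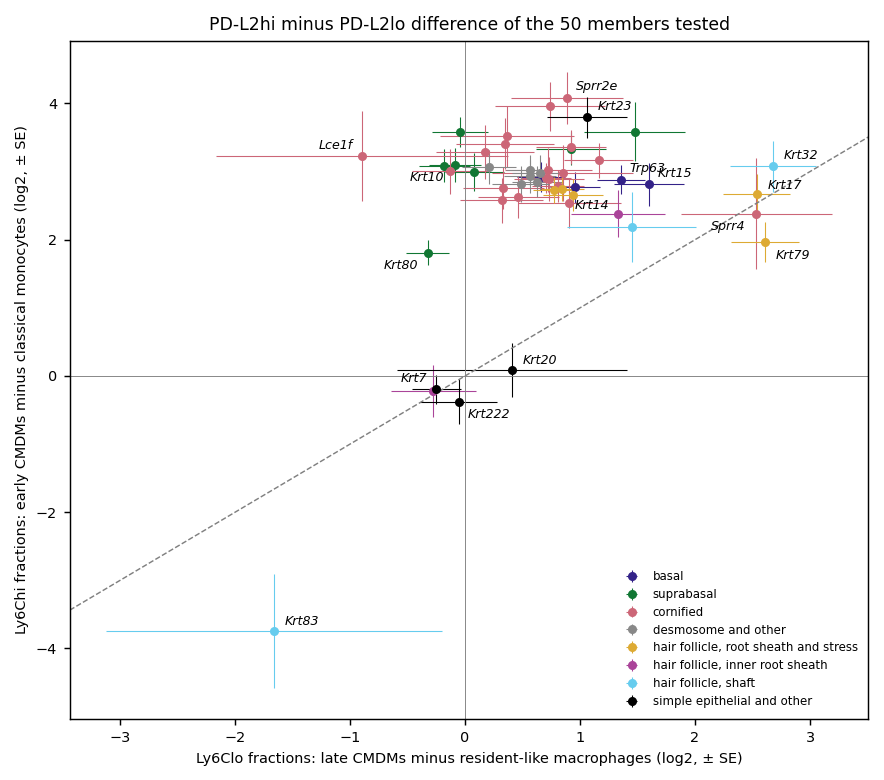
PD-L2hi minus PD-L2lo log2 difference of the 50 tested members in Ly6Clo fractions (x axis) and Ly6Chi fractions (y axis), with SE as bars, coloured by class, and a dashed line where both are equal. Most members lie near 3 on the y axis and between 0 and 1 on the x axis, whereas Krt17, Krt79, Krt32 and Sprr4 lie near the dashed line. Krt7, Krt20, Krt26 and Krt222 also lie near it, low on both axes.

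Ratios of single members within a library do not depend on scaling, and 5 of them were tested over the 4 fractions by an exact permutation test over libraries (one-sided on the between-fraction sum of squares, smallest possible p = 6.49e-05, adjusted over the 5). The suprabasal to basal ratio of Krt10 to Krt14 was 1.38 ± 0.10 in late CMDMs, 2.42 ± 0.19 in classical monocytes, 2.998 ± 0.25 in early CMDMs and 2.83 ± 0.31 in resident-like macrophages (SD, n = 3; exact permutation p = 0.00149, adjusted 0.00249). The 3 late CMDM libraries had 1.49, 1.30 and 1.34, and the other 9 had 2.29 to 3.28. Krt1 to Krt5, the type II counterpart, was 0.255 ± 0.013 in late CMDMs and 0.346, 0.361 and 0.382 on average in classical monocytes, early CMDMs and resident-like macrophages (adjusted permutation p = 0.0134), and again no late library reached another.

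The ratio of the basal partners Krt5 and Krt14 was 0.695 ± 0.062 in late CMDMs and 0.953 ± 0.011 in early CMDMs, with 0.863 and 0.849 in classical monocytes and resident-like macrophages (exact permutation, adjusted p = 0.0013). Ppl to Krt10, the cornified member of highest count against the suprabasal one, was 0.0432 ± 0.0014 in late CMDMs and 0.0291, 0.0238 and 0.0233 in classical monocytes, early CMDMs and resident-like macrophages (adjusted permutation p = 0.0013). Krt1 to Krt10, the suprabasal partners, spanned 0.0991 to 0.133 over the 12 libraries and was not called (exact permutation p = 0.212).

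Other ratios were chosen after the values were seen and are given without a test. Krt17 to Krt14 was 0.263, 0.377 and 0.232 in late CMDMs and 0.0602 to 0.119 in the other 9 libraries. Krt79 to Krt14 was 0.249, 0.350 and 0.275 in late CMDMs and 0.0407 to 0.114 elsewhere, and Krt15 to Krt14 was 0.285 to 0.404 against 0.167 to 0.232. Krt80 to Krt10 set early CMDMs apart instead, with 0.0132 to 0.0153 there, 0.0321 to 0.0440 in classical monocytes, 0.0367 to 0.0441 in late CMDMs and 0.0398 to 0.0563 in resident-like macrophages. Of the summed member CPM, the suprabasal class made up 33.5% ± 2.2 in late CMDMs, 47.2% ± 1.5 in classical monocytes, 50.9% ± 1.1 in early CMDMs and 49.6% ± 1.4 in resident-like macrophages. The root sheath and stress keratins made up 10.2% ± 1.7 in late CMDMs and 3.69%, 2.82% and 3.73% in the same order of the other fractions. Krt17 and Krt79, at 241 ± 90.0 and 241 ± 71.2 CPM, carried most of that class in late CMDMs (619 ± 173 CPM). The basal class made up 28.5% ± 0.45 in late CMDMs and 23.0%, 21.2% and 20.6% in the other fractions. The shaft keratins did not follow in sum, with 0.0554% in late CMDMs and 0.0711%, 0.0112% and 0.0330% in the others. Krt83, whose place rests on classical monocytes, averaged 2.335 of the 3.312 CPM of this class there. Krt32 averaged 2.24 CPM in late CMDMs and 0.284, 2.47 and 0.344 CPM in the others in the same order. The inner root sheath keratins did not follow either, with 0.0494% against 0.0463%, 0.0178% and 0.0488%.

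**Figure D5:**
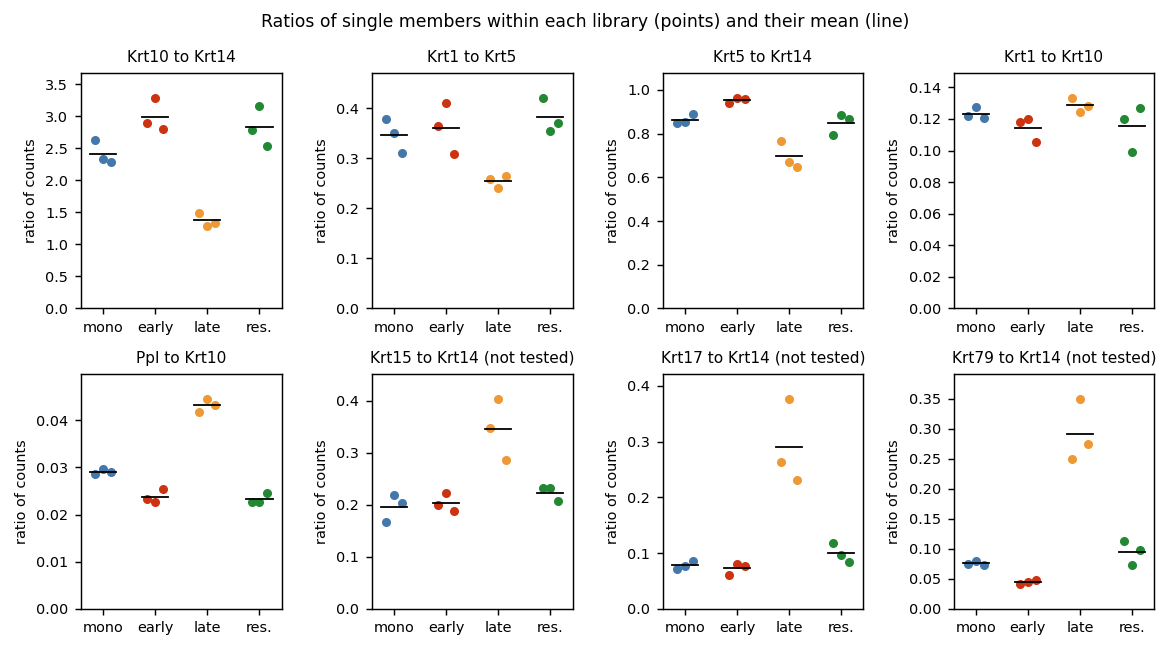
Ratio of counts of pairs of members in each library (points) with the mean (line) for the 4 fractions, each axis starting at 0; the last 3 panels were not tested. Late CMDMs are lowest for Krt10 to Krt14, Krt1 to Krt5 and Krt5 to Krt14 and highest for Ppl to Krt10 and for Krt15, Krt17 and Krt79 to Krt14, without overlap with the other fractions.

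Genes that work with the members but were not chosen by the rule were also mostly highest in early CMDMs (all genes 24.2% higher and 20.6% lower than in classical monocytes). Of 25 tested barrier enzymes and other cornification genes (such as transglutaminases, kallikreins and lipoxygenases), 24 were higher in early CMDMs than in classical monocytes and 22 lower in late than in early CMDMs. Krtdap, a keratinocyte differentiation protein, averaged 979 CPM in early CMDMs against 81.7 CPM in classical monocytes. Among 20 other epithelial adhesion genes 18 were higher and 1 (Plec) was lower in early CMDMs than in classical monocytes, and 18 were lower in late than in early CMDMs. All 10 epidermal transcription factors were higher in early CMDMs, and 9 were lower in late than in early CMDMs, the exception being Klf4, which macrophages also express (1166 and 1164 CPM). In late CMDMs against classical monocytes 9 of 25 barrier genes were higher and 1 lower, 10 of 20 adhesion genes higher and 1 (Plec) lower, and 6 of 10 transcription factors higher (all genes 18.1% higher and 17.5% lower). Some adhesion genes were higher in resident-like macrophages, unlike the members: Epcam, Cldn1, Cdh1 and Jup against classical monocytes (by 2.65, 2.63, 0.97 and 0.42 on the log2 scale), Epcam and Cldn1 against late CMDMs (1.43 and 1.45), and Epcam and Plec against early CMDMs (0.56 and 0.44). Only 1 of 17 keratin-associated protein genes of the hair shaft, Krtap3-2, passed the filter on low counts, and it rose by 1.64 in early CMDMs (0.732 against 0.229 CPM).

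Markers of other skin cells mostly followed other courses. The 6 fibroblast markers summed to 3250 to 5580 CPM in classical monocytes and 2980 to 4200 CPM in early CMDMs, with single-gene log2 differences of -0.45 to -0.14 between these fractions, and to 477 to 498 CPM in late CMDMs and 275 to 357 CPM in resident-like macrophages, where none was at 0. The 5 sebocyte markers (Awat1, Awat2, Mc5r, Elovl3, Far2) summed to 81.3 to 129 CPM in late CMDMs, 49.3 to 78.3 CPM in early CMDMs, 16.1 to 55.7 CPM in classical monocytes and 15.2 to 43.2 CPM in resident-like macrophages, and 3 of 5 were higher in late CMDMs than in classical monocytes. The 3 of 5 stand against 18.1% of all genes. In sum the sebocyte markers were highest in late CMDMs, where Krt17 and Krt79 averaged 241 CPM each. Against early CMDMs Mc5r alone was called higher and 0 were called lower (all genes 14.4% and 17.5%). Awat1 averaged 4.06 CPM in early and 3.35 CPM in late CMDMs. In early CMDMs Krt17 averaged 268 CPM and Krt79 164 CPM, and there 0 of the 5 sebocyte markers were called higher than in classical monocytes. The part of these markers in the values of Krt17 and Krt79 was not tested. The 5 endothelial markers summed to 140 to 162 CPM in late CMDMs, 129 to 138 CPM in early CMDMs, 70.3 to 76.0 CPM in classical monocytes and 45.8 to 67.0 CPM in resident-like macrophages. Most of the sum was Pecam1 (105 CPM in late and 102 CPM in early CMDMs). Single markers differed, with Flt4 and Prox1 highest in late CMDMs and Kdr highest in classical monocytes (11.8 CPM, against 6.35 CPM in early CMDMs). The 5 T cell markers summed to 129 to 172 CPM in classical monocytes, where Krt83 was highest, and 18.9 to 46.1 CPM elsewhere. The 5 Langerhans and dendritic cell markers summed to 905 to 1200 CPM in resident-like macrophages and 127 to 262 CPM elsewhere. Most of this resident-like sum was Cd207 (818 CPM) and Epcam (218 CPM), the latter also one of the adhesion genes above. Flt3 was instead highest in classical monocytes (68.8 CPM, against 26.9 CPM in resident-like macrophages), and Xcr1 averaged 3.21 to 4.22 CPM over the fractions. Melanocyte, muscle, neutrophil, and basophil and mast cell markers stayed between 3.64 and 124 CPM in sum in all libraries, with Ly6g at 0 in the fractions other than classical monocytes. The neutrophil marker S100a9 was highest in early CMDMs, as were most members. It averaged 10.3 CPM there and 1.30, 1.77 and 0.513 CPM in classical monocytes, late CMDMs and resident-like macrophages. Csf3r, which carried most of the neutrophil sum, was highest in late CMDMs (104 CPM). The part of these marker lists in the member levels was not tested.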

How the data were processed

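The deposited file holds raw counts per gene symbol. The authors trimmed reads (cutadapt 4.1), aligned them to GRCm38 reference RNA (Bowtie2 2.4.5), counted reads per transcript and summed them by symbol. Here all 12 libraries (4 fractions of 3) were fitted together with edgeR 4.0.16 (R 4.3.3; TMM scaling, filterByExpr by fraction, robust quasi-likelihood test), with Benjamini-Hochberg adjustment over 22118 genes and no replicate block; DESeq2 1.42.0, other scalings, filters and thresholds and leaving out each library were alternatives. Total counts set the precision: 3 counts, taken as the floor of a library, are 0.161 to 0.239 CPM. No libraries of a fraction agreed within sampling noise (chi-square per degree of freedom 4.24 to 21.9). A gene's 50-base words found in transcripts of other genes measured shared sequence. Named genes were the 4 of highest summed count in each class (hair classes together), the largest called change per comparison and direction, and members called against their class; others are named after their values were seen. The members, classes, marker lists and leukocyte scaling were chosen with earlier results of these data known. The edgeR fit was tested on simulated data.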

Additional observations from a re-analysis of the deposited data

Results flagged for a closer look

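The PD-L2hi minus PD-L2lo difference was larger in the Ly6Chi than in the Ly6Clo fractions in 35 of the 50 members tested (34 of the 44 whose place in the list does not rest on a single fraction), by the interaction term of the edgeR fit (all genes 11.8%). The gap of Krt10 was 3.18 on the log2 scale, with 3.09 between early CMDMs and classical monocytes and -0.09 between late CMDMs and resident-like macrophages. For Krt17, Krt79 and Krt32 the same term was not called.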

How the results depend on the processing

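Of the recomputed counts of members called, 141 stayed within 1.5 times the reported count, 19 moved and 0 changed direction, and the 5 ratio tests kept their side of the threshold in all 70 recomputations. Late CMDMs against classical monocytes (12 called) had 41 under scaling by 10 leukocyte genes, 21 (19 higher and 2 lower) with the replicate number as a block and 8 to 24 when 1 library was left out. Resident-like macrophages against late CMDMs (20) had 36 under leukocyte scaling, 10 at an adjusted p under 0.01, 10 at a log2 fold change of at least 1 and 10 to 25 when 1 library was left out. Resident-like macrophages against classical monocytes (4) had 2 under leukocyte scaling, with no filter, with 10 counts required in every library and at an adjusted p under 0.01, and 2 to 15 when 1 library was left out. The counts of the other comparisons were 45 to 46, 41, 45 to 46 and 34 to 37 when 1 library was left out. The replicate block left the other counts at 46, 41, 25, 5, 45 and 36. Same-numbered libraries correlated by -0.0987 to 0.248 in their deviations from the fraction means (4 of 18 pairs over 0.1), with a median of 0.0589. The median for other numbers was -0.0314, and 9 of 12 libraries were closest to their own number. The reported fit did not take the numbers as pairs, and a source shared by same-numbered libraries was not tested.

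Of the fold changes of named members, 2171 recomputed values kept direction and call, 53 lost the call, 3 gained it and 11 changed sign, each of the 11 in a difference that was not called as reported, while 3 were called in the new direction. Those 3 came under leukocyte scaling, where Krt10 (late CMDMs against classical monocytes) turned to 0.67 and Krt7 and Krt222 (early CMDMs against classical monocytes) to 1.51 and 1.27 (edgeR adjusted p = 0.0489, 3.92e-06 and 0.00455), each below the shift of all genes by that scaling (0.88, 1.66 and 1.66), and Krt79 (late against early CMDMs) to -0.24. When 1 library was left out, Krt10 spanned -0.48 to 0.063 (late) and -0.39 to 0.15 (resident-like) against classical monocytes, turning without replicate 2 of classical monocytes. Krt20 spanned -0.14 to 0.59 in early CMDMs against classical monocytes, turning without replicate 2 or 3 of the latter (-0.073, -0.14) or replicate 1 of the former (-0.13), and Krt17 spanned -0.50 to 0.041 in late against early CMDMs, turning without replicate 2 of early (0.041) or 3 of late CMDMs (0.0048). The cause was not tested. Depth limits Krt83, Sprr4, Lce1f and Krt32, each under 50 counts in every library.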
